A study of Gallus gallus with 2 samples.

Results

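The 48 genes described here encode nucleoporins, importins, exportins and proteins of the Ran cycle in chicken DT40 cells, a B-lymphocyte line derived from a tumour of the bursa, in which genes are readily disrupted by homologous recombination. Members were chosen by the array's gene symbols: names starting with NUP, IPO or XPO and a digit, with KPNA, KPNB or TNPO, and RAN, RANBP1, RANBP2, RANGAP1, RCC1, CSE1L, TPR, NDC1 and POM121. A probe set also had to reach a signal of 98 on 1 or both arrays, because signals below this were taken to have no reliable order. Of 134 probe sets of 50 genes with such names, 112 probe sets of 48 genes reached it, out of 16710 probe sets and 7979 named genes that did so in all. KPNA7 and NUP42L4, with 1 probe set each, stayed under it. No probe set carried the symbols RANBP2, POM121, NUP107, IPO4 or TNPO2, so these were not analysed here. Just outside the limit stood probe sets of TNPO1, XPO5 and NUP214 with higher signals of 90.1, 83.7 and 79.6, and just inside it probe sets of NUP160, NUP62 and KPNA1 with 102.4, 103.3 and 111.4.

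The groups were 1 array of the H2A.Z-1 KO line and 1 array of the H2A.Z-2 KO line. H2A.Z is a variant of histone H2A found in some nucleosomes, and its 2 forms have a gene each. The H2A.Z-1 KO line keeps an H2A.Z-1 transgene that tetracycline represses, whereas H2A.Z-2 was disrupted for good in the other line. Tetracycline was given to both for 72 hours at 2 µg/ml. Whether each line is 1 clone is not given in these sources. No wild-type array was analysed, so each difference contrasts the knockouts with each other and cannot be assigned to either. Since each genotype has 1 array, replicate error is unknown, nothing could be tested, and precision is limited by the 2 arrays.

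Transcripts of the knocked-out genes differed in the direction of the labels. H2AFZ, the gene of H2A.Z-1, had signals of 614.6 in H2A.Z-1 KO cells and 27642 in H2A.Z-2 KO cells. H2AZ2 had 20911 in H2A.Z-1 KO cells and 42.1, below 98, in H2A.Z-2 KO cells. The place of their probes relative to the deletions was not analysed here, so this check is limited. All 14 B-cell marker genes with a probe set reached 98 on 1 or both arrays. Of the listed markers of other cells, 5 of 11 T and NK cell genes, 3 of 9 myeloid genes, 1 of 5 erythroid and thrombocyte genes and 3 of 11 fibroblast and epithelium genes did so. Over the whole array 7979 of 13009 named genes reached 98. In the B-cell list 7 of 14 genes were at least 1.5-fold higher in the H2A.Z-1 KO line, against 7.57% of all genes. Another 2 were at least 1.5-fold higher in the H2A.Z-2 KO line, against 11.7% of all genes. CD79B, a chain of the B-cell receptor, had 10163 in H2A.Z-1 KO cells and 1160 in H2A.Z-2 KO cells, and TNFRSF13B, a receptor for survival factors, 823.9 in H2A.Z-1 KO cells and 2138 in H2A.Z-2 KO cells. Of the 5 T and NK cell genes, CD5, GNLY and CD8A were higher in the H2A.Z-2 KO line, and CD3D and CD247 in the H2A.Z-1 KO line. The summed brightest signal of a list was 82022 in H2A.Z-1 KO cells and 52866 in H2A.Z-2 KO cells for B cells, 10515 and 8901 in the same order of lines for T and NK cells, and 3388 and 2039 for myeloid cells. The T and NK cell sum is mostly that of CD3D, with 9211 in H2A.Z-1 KO cells and 7509 in H2A.Z-2 KO cells. The myeloid sum is mostly that of SPI1, with 3075 in H2A.Z-1 KO cells and 1571 in H2A.Z-2 KO cells. The sums were 165.9 in H2A.Z-1 KO cells and 279.5 in H2A.Z-2 KO cells for erythroid cells and thrombocytes, and 693.8 and 666.0 for fibroblasts and epithelium. All 5 erythroid and thrombocyte signals were under 98 in H2A.Z-1 KO cells, and only HBAD, at 123.1, passed it in H2A.Z-2 KO cells. These 2 sums were therefore taken to have no reliable order. Most signals in the fibroblast and epithelium sums were under 98 too. CD3E, CSF1R, HBA1, EPCAM and CDH1 stayed under 98 on both arrays. The part of these marker differences in the results below was not tested. In bulk RNA of this kind, fewer cells of a type and less RNA per cell cannot be told apart.

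Nuclear pores are the passage for macromolecules through the nuclear envelope. They are built from nucleoporins: scaffold rings, membrane anchors, and channel proteins whose phenylalanine-glycine repeats bind transport receptors. Importins and exportins carry cargo through the channel, and the small GTPase Ran, loaded with GTP in the nucleus by RCC1 and induced to hydrolyse it in the cytoplasm by RANGAP1, sets the direction of transport. The roles named below are those known from human, frog and yeast cells.

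As a whole the transport genes differed little between the knockouts. Signals of the 112 probe sets spanned 34.7 to 24225, and most lay close to the diagonal in the scatter of signals. With signals under 98 set to 98, 1 probe set was at least 2-fold higher in the H2A.Z-1 KO line, against 3.23% of all probe sets, and 1 was at least 2-fold higher in the H2A.Z-2 KO line, against 3.94% of all. Both of these probe sets, of NUP160 and XPO6, can match more than 1 transcript. At 1.5-fold, 14 members (12.5%) were higher in the H2A.Z-1 KO line, against 8.90% of all probe sets. Another 4 members (3.57%) were 1.5-fold higher in the H2A.Z-2 KO line, against 12.5% of all probe sets. The median log2 ratio, taken as H2A.Z-1 KO over H2A.Z-2 KO, was 0.06 over the member probe sets and -0.05 over all probe sets. The SD of the ratios was 0.36 for members and 0.63 for all probe sets.

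**Figure D1:**
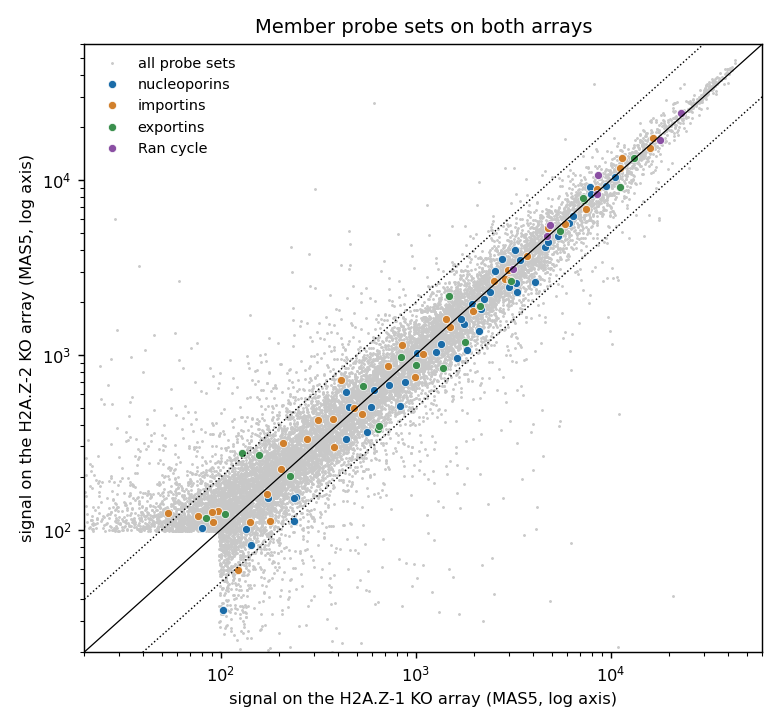
MAS5 signals of H2A.Z-1 KO cells (x axis, log scale) and of H2A.Z-2 KO cells (y axis, log scale) for all probe sets that reach 98 on 1 or both arrays (grey) and for the 112 members, coloured by family. The solid line marks equal signals and the dotted lines 2-fold differences; signals are drawn as deposited, and members above 1000 on both arrays all stay inside the dotted lines.

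Bright probe sets vary less, and 55.4% of member probe sets had signals of at least 1000 on both arrays, against 31.6% of all. Of these 62 member probe sets 4 (6.45%) were at least 1.5-fold higher in the H2A.Z-1 KO line, against 6.19% of all 5283 probe sets this bright. None of the 62 was 1.5-fold higher in the H2A.Z-2 KO line, against 4.88% of the 5283. The SD of the ratios there was 0.24 for members and 0.40 for all. Spike-in control probe sets, which report RNA added in fixed amounts, had an SD of 0.15 over 42 probe sets. Their mean log2 ratio was 0.07 and their largest absolute log2 ratio 0.45.

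Probe sets of 1 gene gave a further measure of error within these arrays. The SD between probe sets within a gene, pooled over genes, was 0.29 over the 37 member genes with at least 2 of them, and 0.36 over all 3590 such genes. In 19 of the 37 member genes (51.4%) the probe sets had opposite signs, against 36.0% of all 3590 such genes, and in 18 they had the same sign. Ratios close to 0 count here too, such as 0.01 and -0.02 for RANGAP1, so the count of signs is no measure of error. A gene ratio within 0.29 of 0 is no larger than the pooled SD between probe sets. This spread describes probes and not cultures.

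The 23 nucleoporin genes, each the mean of its probe sets, had a median log2 ratio of 0.14, with 16 above 0 and 7 below. The 15 importin genes had a median of -0.10, with 5 above 0 and 10 below, but 0.032 over probe sets of a single match and 0.029 over the brightest of each gene. The 6 exportins had a median of 0.10, with 3 above 0 and 3 below, and the 4 Ran cycle genes had a median of -0.07. Over all 7979 genes the median was -0.06 and 42.6% of genes were above 0. No member gene differed 2-fold as a mean, against 6.65% of all genes. At 1.5-fold, 3 of the 48 genes, all nucleoporins, were higher in the H2A.Z-1 KO line, against 7.57% of all genes. Of these NUP42 fell short of 1.5-fold with quantile normalization (0.56) and with the brightness trend removed (0.57), settings in which NUP210L passed (0.64 and 0.71). The exportin XPO4 passed with a floor at the 80th percentile (0.65), with probe sets of a single match (0.71) and over the brightest (0.59). NUP160 passed with quantile normalization (0.59), NUP93 with probe sets of a single match (0.66) and NUP62 with no floor (0.67). NUP188 stayed past 1.5-fold under every alternative, at 0.62 to 0.68. Which other genes passed 1.5-fold depended on the processing. No member gene was 1.5-fold higher in the H2A.Z-2 KO line, against 11.7% of all genes. Over the brightest probe set per gene, however, TNPO1 passed in this direction (-0.79). Over the 28 nucleoporin probe sets of at least 1000 on both arrays the median was 0.096, with 20 above 0, and over the 9 exportin probe sets this bright it was 0.105, with 5 above 0. Over all probe sets this bright it was 0.01, with 50.6% above 0. With probe sets of a single match the nucleoporin median was 0.093 and the exportin median 0.103, so the order of these families is not settled. The differences between families were not tested.

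**Figure D2:**
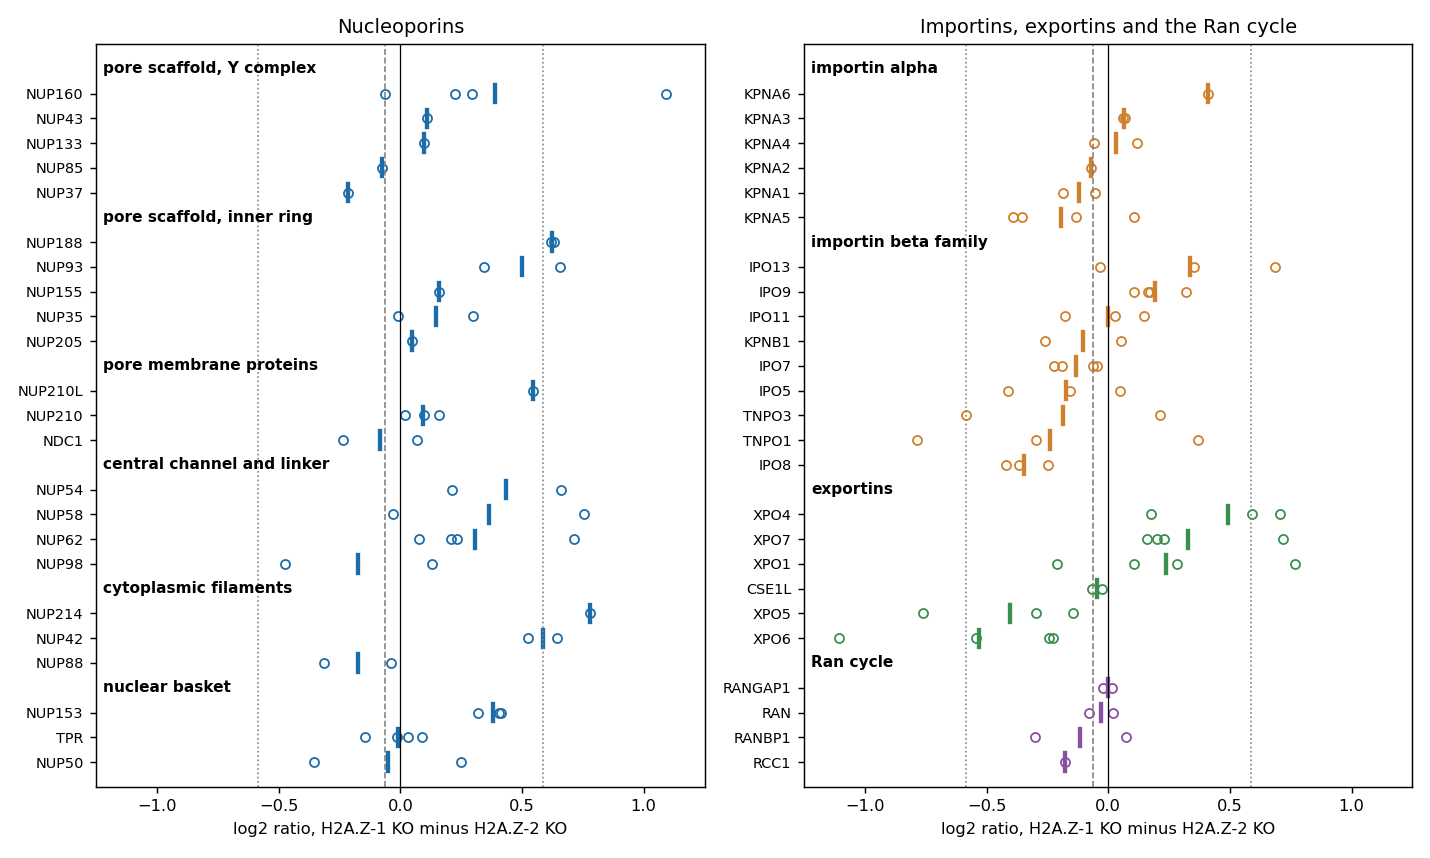
Log2 ratio (x axis, H2A.Z-1 KO over H2A.Z-2 KO) of every member gene, grouped by role; circles are probe sets and vertical bars their mean. Dotted lines mark 1.5-fold and the dashed line the median of all genes, -0.06; NUP214, NUP188 and NUP42 lie at or past the right dotted line and XPO6 comes closest to the left one at -0.53.

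The inner ring of the pore scaffold was measured with 5 genes, and all 5 had ratios above 0, against 42.6% of all genes. NUP188, a large scaffold protein of this ring, had signals of 2110 and 560.1 on its 2 probe sets in H2A.Z-1 KO cells, and 1375 and 361.7 in H2A.Z-2 KO cells. Both were higher in H2A.Z-1 KO cells by nearly the same factor, with log2 ratios of 0.62 and 0.63, and the mean amounts to 1.54-fold. NUP93, which anchors NUP188 and NUP205 in the ring, had 3255 and 238.6 in H2A.Z-1 KO cells against 2563 and 151.4 in H2A.Z-2 KO cells. Its ratios of 0.34 and 0.66 gave a mean of 0.50, and its other 2 named probe sets stayed under 98. NUP205, the close relative of NUP188, had 6399 in H2A.Z-1 KO cells and 6198 in H2A.Z-2 KO cells on its 1 probe set, a ratio of 0.05. Among these 3 partners the ratios therefore spanned 0.58. NUP155, a further scaffold subunit, gave 5360 in H2A.Z-1 KO cells and 4807 in H2A.Z-2 KO cells, a ratio of 0.16. NUP35, which links the ring to the membrane, stood at 0.14 with probe sets at 0.30 and -0.01.

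The outer ring, built from Y-shaped complexes, lay within 0.22 of 0 in 4 of its 5 member genes. Its subunits SEC13, SEH1L and AHCTF1 have other names and are no members, and stood at -0.44, 0.11 and -0.10. NUP160, at the top of the Y, had 4 probe sets that disagreed. Its signals were 1277, 591.6, 238.9 and 80.6 in H2A.Z-1 KO cells, against 1040, 506.0, 112.1 and 102.4 in H2A.Z-2 KO cells. The brighter pair had ratios of 0.30 and 0.23, the third 1.09, and the dimmest, under 98 in H2A.Z-1 KO cells, -0.06. The third probe set is the single member past 2-fold in this direction, and the mean of NUP160 is 0.39. NUP133 (2236 in H2A.Z-1 KO and 2093 in H2A.Z-2 KO cells) and NUP43 (4774 and 4419) had ratios of 0.10 and 0.11. NUP85 had 7882 in H2A.Z-1 KO cells and 8297 in H2A.Z-2 KO cells, a ratio of -0.07. NUP37 had 7877 in H2A.Z-1 KO cells and 9152 in H2A.Z-2 KO cells, a ratio of -0.22. This was the lowest mean among the nucleoporin members, and some pore genes with other names, described below, were lower. Over the brightest probe set NUP50 (-0.35), NUP88 (-0.31) and NDC1 (-0.23) were lower than NUP37. NUP133, NUP43, NUP85 and NUP37 rest on 1 probe set each.

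Among the membrane anchors, NUP210, a large single-pass protein of the pore membrane, had 3 probe sets between 4616 and 10559 in H2A.Z-1 KO cells, and between 4132 and 10409 in H2A.Z-2 KO cells. Its ratios of 0.02 to 0.16 were all small. NDC1, a multispanning anchor, had 2395 and 2563 in H2A.Z-1 KO cells against 2281 and 3016 in H2A.Z-2 KO cells, with ratios of 0.07 and -0.23. NUP210L, a relative of NUP210, was dim, at 142.9 in H2A.Z-1 KO cells and 82.2, under 98, in H2A.Z-2 KO cells. Its difference is at least 1.46-fold, and its second probe set stayed under 98 on both arrays.

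The channel trimer of NUP62, NUP54 and NUP58 carries phenylalanine-glycine repeats that line the transport path. All 3 genes had positive means, 0.31, 0.44 and 0.36, but these depended on the processing. NUP62 was 0.67 with no floor, and over the brightest probe set NUP62 stood at 0.23, NUP54 at 0.21 and NUP58 at -0.03. NUP62 had signals of 1773, 831.8, 174.5 and 103.3 in H2A.Z-1 KO cells, and 1510, 507.5, 151.2 and 34.7 in H2A.Z-2 KO cells. All its probe sets were brighter in H2A.Z-1 KO cells, the second by a ratio of 0.71, and for the dimmest, whose value in H2A.Z-2 KO cells is under 98, only a lower bound of 1.05-fold can be given. NUP54 had 1344 and 244.6 in H2A.Z-1 KO cells against 1162 and 154.8 in H2A.Z-2 KO cells, with ratios of 0.21 and 0.66. NUP58 had 3432 and 1633 in H2A.Z-1 KO cells against 3505 and 967.2 in H2A.Z-2 KO cells. The brighter probe set of NUP58 was level (-0.03) and the other stood at 0.76, so its mean rests on 1 of 2 probe sets. NUP98, a mobile repeat protein that binds RNA export factors, had 733.6 and 440.9 in H2A.Z-1 KO cells against 671.3 and 612.1 in H2A.Z-2 KO cells, and these probe sets too had opposite signs (0.13 and -0.47).

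**Figure D3:**
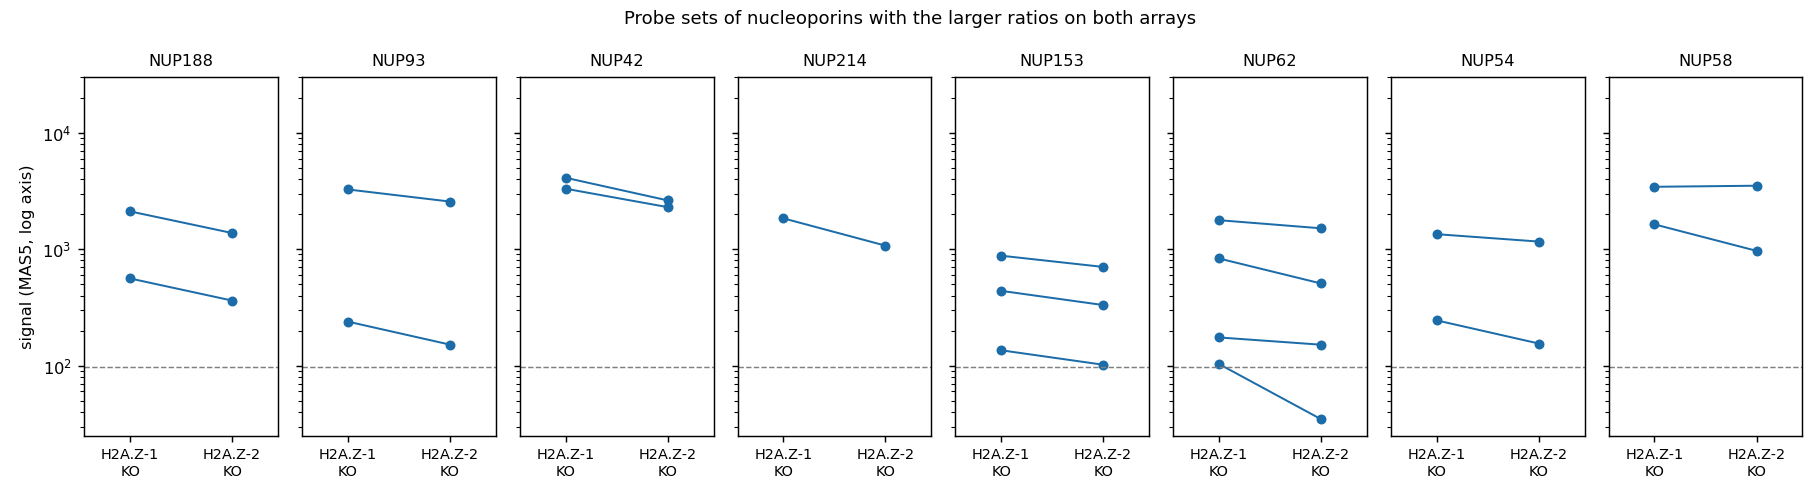
MAS5 signal (y axis, log scale) of each probe set of 8 nucleoporins in H2A.Z-1 KO cells (left point) and H2A.Z-2 KO cells (right point); lines join the same probe set and the dashed line marks 98. Lines of NUP188, NUP42 and NUP153 run in parallel, whereas the upper line of NUP58 is flat and its lower line slopes.

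On the cytoplasmic face, 2 of 3 member genes were at least 1.5-fold higher in the H2A.Z-1 KO line, against 7.57% of all genes. Neither call held in every setting. Every probe set of these 2 genes, NUP42 and NUP214, that reached 98 can match more than 1 transcript. Over probe sets of a single match only NUP88 was left, below 0. NUP42, which helps to activate messenger RNA release together with GLE1, had signals of 4102 and 3303 in H2A.Z-1 KO cells, and 2622 and 2295 in H2A.Z-2 KO cells. Its ratios of 0.65 and 0.53 had a mean of 0.59, just at 1.5-fold, and 0.56 with quantile normalization. NUP214, a filament protein that binds the exportin XPO1, had 1839 in H2A.Z-1 KO cells and 1072 in H2A.Z-2 KO cells on the 1 of its 4 probe sets that reached 98, a ratio of 0.78. It is the highest gene ratio among the members, but with a floor at the 40th percentile, which admits its dim probe sets, it was 0.10. NUP88, the partner that holds NUP214 at the pore, had 3217 and 614.4 in H2A.Z-1 KO cells against 3997 and 630.3 in H2A.Z-2 KO cells, a mean of -0.17. These 2 partners thus differed by 0.95 on the log2 scale, although 1 side rests on a single probe set.

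In the nuclear basket, NUP153, which docks importin complexes and anchors the basket, was higher in H2A.Z-1 KO cells on all 3 probe sets. Its signals were 878.6, 438.4 and 135.4 in H2A.Z-1 KO cells, and 703.7, 331.2 and 101.7 in H2A.Z-2 KO cells. The ratios of 0.32, 0.40 and 0.41 are close together, and their mean of 0.38 is larger than the pooled SD between probe sets. TPR, the coiled-coil protein that forms the basket filaments, had 4 probe sets with ratios from -0.15 to 0.09. The brightest gave 9485 in H2A.Z-1 KO cells and 9269 in H2A.Z-2 KO cells. NUP50, a cofactor of importin alpha at the basket, had 2776 and 2176 in H2A.Z-1 KO cells and 3548 and 1828 in H2A.Z-2 KO cells, with ratios of -0.35 and 0.25 that cancel in its mean of -0.05.

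Importin alpha proteins read the classical nuclear localisation signal and bind it to importin beta. KPNA2, the isoform typical of dividing cells, had 16493 in H2A.Z-1 KO cells and 17332 in H2A.Z-2 KO cells, a ratio of -0.07. KPNA3 had 2858 and 1508 in H2A.Z-1 KO cells against 2723 and 1444 in H2A.Z-2 KO cells. KPNA4 had 7467 and 2534 in H2A.Z-1 KO cells against 6873 and 2642 in H2A.Z-2 KO cells. Both of these related isoforms lay within 0.12 of 0 on every probe set. KPNA6 had 991.0 in H2A.Z-1 KO cells and 746.4 in H2A.Z-2 KO cells on 1 probe set, a ratio of 0.41 and the highest of the importins. IPO13 was higher with quantile normalization (0.48, KPNA6 0.40) and with the brightness trend removed (0.48, KPNA6 0.41). The relatives of KPNA6 lay on the other side: KPNA1 stood at -0.12 (2962 in H2A.Z-1 KO and 3077 in H2A.Z-2 KO cells on the brighter probe set) and KPNA5, with no signal over 223.8, at -0.19. The probe set of KPNA6 can match more than 1 transcript, so related isoforms may contribute to its signal.

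Receptors of the importin beta family had 7 of 9 gene ratios below 0, against 57.4% of all genes, but 4 of 9 over the brightest probe sets and 3 of 9 over those of a single match. KPNB1, importin beta itself, had 15880 and 726.0 in H2A.Z-1 KO cells, and 15313 and 869.2 in H2A.Z-2 KO cells, with ratios of 0.05 and -0.26. IPO7, which imports ribosomal proteins and linker histones, had its 3 brightest probe sets at 11376, 11173 and 8550 in H2A.Z-1 KO cells against 13286, 11671 and 8834 in H2A.Z-2 KO cells. All 4 of its probe sets were slightly lower in H2A.Z-1 KO cells, by ratios of -0.05 to -0.22. IPO8, the relative of IPO7 that also has a part in microRNA pathways in human cells, had 317.6, 278.9 and 90.3 in H2A.Z-1 KO cells and 425.2, 331.0 and 126.4 in H2A.Z-2 KO cells. Its 3 ratios, -0.42, -0.25 and -0.37, have the same sign, the last with 1 signal under 98, and the mean of -0.35 was the lowest of the importins. KPNA5 was lower than IPO8 with no floor (-0.41, IPO8 -0.38), and TNPO1 over the brightest probe set (-0.79, IPO8 -0.42).

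Further import receptors went both ways. IPO9, which carries histones H2A and H2B to the nucleus in human cells, had 3031, 2121, 1095 and 122.3 in H2A.Z-1 KO cells, and 2688, 1895, 1018 and 59.1 in H2A.Z-2 KO cells. The 3 brighter ratios were positive, from 0.10 to 0.17. That of the dimmest, whose signal in H2A.Z-2 KO cells is under 98, is a lower bound of 0.32, and the mean of 0.19 was 0.37 with no floor. IPO5, a receptor for ribosomal proteins and core histones, had 5808, 4781 and 853.8 in H2A.Z-1 KO cells against 5619, 5337 and 1137 in H2A.Z-2 KO cells, a mean of -0.17 with both signs. IPO11, a receptor of ubiquitin-conjugating enzymes, stood at -0.00052 with probe sets from -0.18 to 0.15. IPO13, which works in both directions, had 486.0, 179.9 and 142.1 in H2A.Z-1 KO cells and 497.5, 112.0 and 111.2 in H2A.Z-2 KO cells. Its mean of 0.33 comes from the dim pair, whereas the brightest gave -0.03. TNPO1, the receptor of many RNA-binding proteins, had probe sets from -0.79 to 0.37 and a mean of -0.24. Its brightest gave 415.7 in H2A.Z-1 KO cells and 717.6 in H2A.Z-2 KO cells, and the next 382.5 in H2A.Z-1 KO cells and 296.5 in H2A.Z-2 KO cells. TNPO3, which imports SR splicing factors, had 530.8 and 209.9 in H2A.Z-1 KO cells against 458.7 and 315.2 in H2A.Z-2 KO cells, again with opposite signs (0.21 and -0.59).

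Exportins spanned 1.02 on the log2 scale between the lowest and the highest gene. XPO6, which exports actin with profilin in human and frog cells, had the lowest mean over all its probe sets, although IPO8 was lower over probe sets of a single match and TNPO1 over the brightest. Its 4 probe sets had 1488, 128.2, 104.9 and 83.9 in H2A.Z-1 KO cells, and 2169, 276.2, 122.7 and 116.2 in H2A.Z-2 KO cells. Every one was lower in H2A.Z-1 KO cells, by ratios of -0.54, -1.11, -0.23 and -0.25, and the mean was -0.53. The second is the single member past 2-fold in this direction. Without the 2 probe sets that can match more than 1 transcript the mean was -0.24, from the 2 dimmest. XPO5, which exports microRNA precursors, had 7173, 538.9 and 158.0 in H2A.Z-1 KO cells against 7941, 662.3 and 268.1 in H2A.Z-2 KO cells. All 3 ratios were negative, but the brightest, at -0.15, differed less than the dimmest, at -0.76, and the mean was -0.40.

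XPO4 and XPO7 differed in the opposite direction on every probe set. XPO4, the export receptor of the translation factor eIF5A, had 1783, 1383 and 227.9 in H2A.Z-1 KO cells, and 1185, 846.9 and 202.0 in H2A.Z-2 KO cells. The brighter pair had ratios of 0.59 and 0.71, the dimmest 0.17, and the mean was 0.49. With a floor at the 80th percentile the mean was 0.65, past 1.5-fold. XPO7, a receptor with a broad range of cargo, had 3098, 2141, 1006 and 649.2 in H2A.Z-1 KO cells against 2642, 1916, 876.7 and 394.9 in H2A.Z-2 KO cells. Of its ratios 3 lay between 0.16 and 0.23, and the fourth, at 0.72, has a suffix that marks cross-hybridising probes. The probe sets at 0.16 and 0.20 can also match more than 1 transcript, and the probe set of a single match stood at 0.23.

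The remaining exportins are XPO1 and CSE1L. XPO1, the receptor for leucine-rich export signals, had 11106, 5471, 837.1 and 645.2 in H2A.Z-1 KO cells, and 9128, 5087, 968.3 and 379.0 in H2A.Z-2 KO cells. The brighter pair gave 0.28 and 0.11, and the dimmer pair disagreed (-0.21 and 0.77), for a mean of 0.24 that was 0.53 over probe sets of a single match. CSE1L, which returns importin alpha to the cytoplasm, had 13113 and 7305 in H2A.Z-1 KO cells against 13336 and 7643 in H2A.Z-2 KO cells, and both ratios were within 0.07 of 0.

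**Figure D4:**
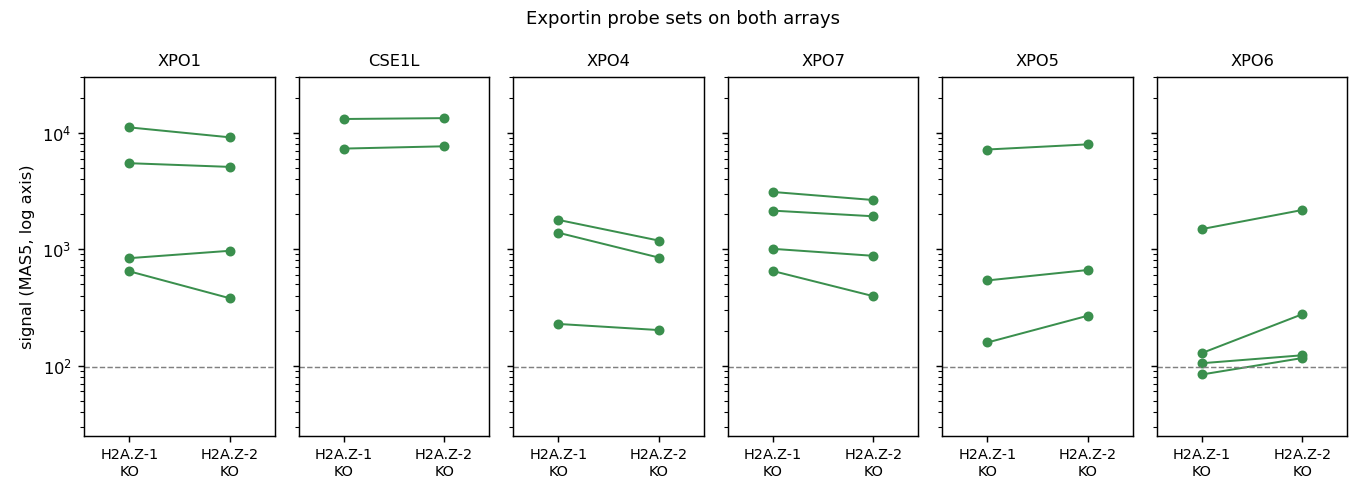
MAS5 signal (y axis, log scale) of each exportin probe set in H2A.Z-1 KO cells (left point) and H2A.Z-2 KO cells (right point); lines join the same probe set and the dashed line marks 98. All lines of XPO4 and XPO7 slope down to the right and all lines of XPO5 and XPO6 slope up, whereas CSE1L is flat.

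The 7 Ran cycle probe sets had ratios between -0.30 and 0.07. All had signals of at least 1000, and their SD of 0.13 compares with 0.12 over the 18 importin probe sets this bright. RAN had signals of 22945 and 8474 in H2A.Z-1 KO cells, and 24225 and 8364 in H2A.Z-2 KO cells, a mean ratio of -0.03. RANGAP1 had 4710 and 3148 in H2A.Z-1 KO cells against 4775 and 3116 in H2A.Z-2 KO cells, a mean of -0.0026. RCC1, the chromatin-bound exchange factor of Ran, had 4866 in H2A.Z-1 KO cells and 5499 in H2A.Z-2 KO cells, a ratio of -0.18. RCC1 binds nucleosomes through the acidic patch of H2A and H2B, and its own transcript differed here by less than the pooled SD between probe sets. RANBP1, which helps to release Ran from receptors, had 17876 and 8619 in H2A.Z-1 KO cells against 16999 and 10628 in H2A.Z-2 KO cells, with opposite signs (0.07 and -0.30).

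**Figure D5:**
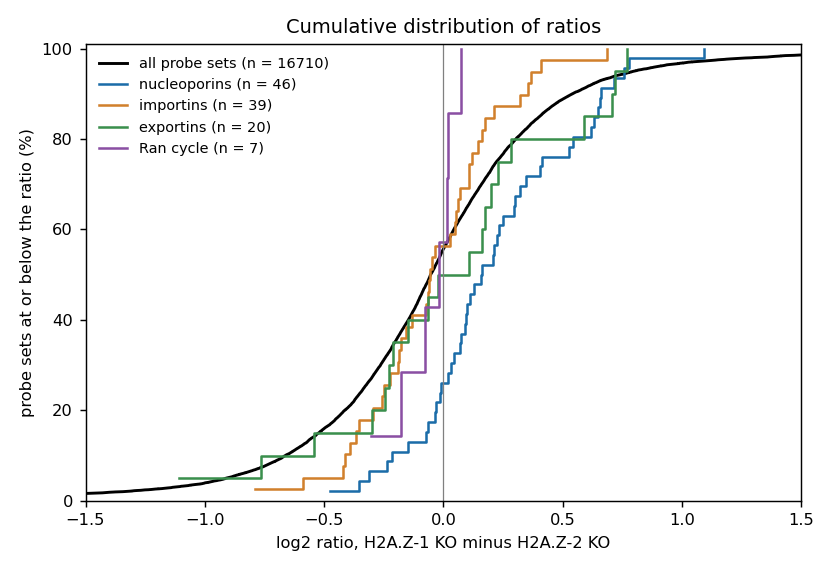
Share of probe sets (y axis, %) at or below each log2 ratio (x axis, H2A.Z-1 KO over H2A.Z-2 KO) for the 4 families and for all 16710 probe sets (black); the x axis ends at -1.5 and 1.5. The nucleoporin curve lies to the right of the black one over most of its length, with a median of 0.16 over 46 probe sets, and the Ran cycle curve spans -0.30 to 0.07.

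Pore components with other names were described from a separate list. Of 18 symbols listed for the pore and its attached complexes, 12 had a probe set. All 12 reached 98, with a median of -0.25 and 3 above 0, against 42.6% of all genes above 0. Their range overlaps that of the nucleoporins. The difference between these lists was not tested. One of the 12 passed 1.5-fold, and 2-fold too, against 19.2% and 6.65% of all genes. CETN2, which also works at centrioles and in DNA repair, had 558.0 in H2A.Z-1 KO cells and 1629 in H2A.Z-2 KO cells, a log2 ratio of -1.55 on 1 probe set. POM121C, a pore membrane protein, had 4382 in H2A.Z-1 KO cells and 6207 in H2A.Z-2 KO cells, a ratio of -0.50. At the other end GLE1, the partner of NUP42, stood at 0.36 on both probe sets that reached 98, and MCM3AP, a scaffold of the export complex at the basket, at 0.18. With these 12 genes added to the 23 nucleoporins, a combination chosen after their values were seen, the median over 35 genes was 0.09, and 19 were above 0.

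Other transport receptors and Ran cofactors were close to 0. Of 20 symbols listed 12 had a probe set and 11 reached 98, with a median of 0.06. None of the 11 passed 1.5-fold, against 19.2% of all genes. The highest were RANBP17, an exportin relative, at 0.53 (141.9 in H2A.Z-1 KO cells and 89.2, under 98, in H2A.Z-2 KO cells) and the co-chaperone gene BAG2 at 0.38. The lowest were XPOT, the exportin of transfer RNA, at -0.27 with 10234 in H2A.Z-1 KO cells and 12319 in H2A.Z-2 KO cells, and NEMF at -0.22. The probe sets of NEMF had opposite signs (-0.73 and 0.29). NUTF2, which returns Ran to the nucleus, stood at 0.0031 over 3 probe sets and was chosen after its value was seen.

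Member genes lay on 21 chromosomes of the RefSeq table, which lists no location for NUP35 and for the measured probe sets of IPO11. NUP188 and NUP214, 2 of the 3 genes past 1.5-fold, are both on chromosome 17, with 17 measured genes between them. The median over all 171 measured genes of that chromosome was -0.03. NUP58 and XPO4 are closer neighbours on chromosome 1, with 7 measured genes between them, and stood at 0.36 and 0.49. The other 10 members on that chromosome had ratios of 0.07 or less, and its 1018 measured genes a median of -0.07. RANBP1 and RAN lie 10 measured genes apart on chromosome 15 and were both near 0.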

How the data were processed

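Intensity values were deposited by the authors as linear MAS5 signals, 1 per probe set and array, per the submitters' processing notes. Biotin-labelled cRNA was made from total RNA for an Affymetrix array, per the labels' protocols. The MAS5 version, target and detection calls are not given in these sources. The 2% trimmed means, 495.4 in H2A.Z-1 KO and 495.6 in H2A.Z-2 KO cells, show equal scaling, under which a change of all transcripts together cannot be seen. The 96 control probe sets were left out. Signals under 98, which 60.0% of all are, were set to 98, so a difference against one is a lower bound. Probe sets of a gene that reach 98 were averaged on the log2 scale. Symbols came from the platform annotation. Of 112 member probe sets 107 had a gene in the RefSeq table (assembly GRCg7b), with no changed symbol. The suffixes _s_at, _a_at and _x_at (52 members) mark possible matches to more than 1 transcript.

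All member genes are named, with the 2 highest and 2 lowest of each further list; other genes named, the cell markers included, were chosen after their values were seen. Members and lists were chosen with earlier results of these data known. The 9 alternatives covered scaling, floor and probe sets (lowess fraction 0.3, 3 iterations, statsmodels 0.14.6). The steps were tested on simulated data.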

Additional observations from a re-analysis of the deposited data

How the results depend on the processing

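Counts of probe sets depended most on the floor and on the probe sets kept. At least 2-fold, 1 member was higher in H2A.Z-1 KO cells and 1 in H2A.Z-2 KO cells; the counts were 3 and 2 with a floor at the 40th percentile (a signal of 37.6) and with no floor, and 0 and 0 with a floor at the 80th percentile (567.9), with probe sets of a single match only, and with the brightest probe set per gene. Quantile normalization and removal of the brightness trend left 0 in H2A.Z-2 KO cells. At least 1.5-fold, 14 and 4 became 18 and 7 with the lower floor, 6 and 0 with the higher, 6 and 1 with single-match probe sets (60 kept) and 4 and 1 with the brightest per gene (48 kept). The lower floor kept 127 members of 26068 probe sets and the higher 79 of 8253. Single-match probe sets were 10510 in all and the brightest 11281. Shares of all probe sets past each fold are not given for the alternatives, so these counts cannot be set against them. The importin median of -0.10 turned to 0.032 with single-match probe sets and to 0.029 with the brightest per gene. The nucleoporin median lay between 0.09 and 0.20 under the alternatives, and with single-match probe sets, at 0.093, it was under the exportin median of 0.103. The median over all 48 genes, 0.01, was -0.01 with quantile normalization. Of the 48 genes 32 kept their sign under every alternative that measured them and 16 did not, NUP58, NUP98, NUP50, IPO13, TNPO1 and TNPO3 among them. NUP62 was 0.67 with no floor. XPO1 was 0.53 with single-match probe sets. The cause of these moves was not tested beyond the number of probe sets each choice keeps. No paired analysis was possible because each group has 1 array. Dim probe sets limit genes such as IPO8, IPO13, KPNA5, NUP210L and XPO6.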

Other observations

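Genes of messenger RNA export and of the nuclear lamina, the structures next to the pore, were also described from separate lists. Of 20 export and cap-binding symbols listed 15 had a probe set. All 15 reached 98, with a median log2 ratio (H2A.Z-1 KO over H2A.Z-2 KO) of 0.09 and 11 above 0. Over all genes the median was -0.06 and 42.6% were above 0. NCBP1, the large subunit of the nuclear cap-binding complex, was highest at 0.58, with geometric mean signals of 6895 in H2A.Z-1 KO cells and 4616 in H2A.Z-2 KO cells, and POLDIP3 followed at 0.35. THOC7, a subunit of the THO complex, had 195.4 in H2A.Z-1 KO cells and 453.5 in H2A.Z-2 KO cells on 1 probe set, a ratio of -1.21. CHTOP stood at -0.24 with probe sets from -0.96 to 0.14. THOC7 was the single gene of this list past 1.5-fold, against 19.2% of all genes.

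Of 21 lamina and envelope symbols listed 18 had a probe set and 12 reached 98. The median of these 12 was 0.24, with 9 above 0 and none past 1.5-fold, against 42.6% of all genes above 0 and 19.2% past 1.5-fold. LEMD2, an inner membrane protein, was highest at 0.45 over 3 probe sets and LMNB2, a B-type lamin, next at 0.36, with 5817 in H2A.Z-1 KO cells and 4527 in H2A.Z-2 KO cells. LMNB1, the other B-type lamin, stood at 0.35, chosen after its value was seen. TOR1A, an ATPase of the envelope lumen, was lowest at -0.49 with probe sets from -1.31 to 0.05. ANKLE2 stood at -0.27 with probe sets at -0.53 and -0.01, and its signals in H2A.Z-1 KO cells were under 98. LMNA, the gene of the A-type lamins, stayed under 98 on both arrays.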
